A study of Mus musculus with 8 samples.

Results

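Resting macrophages grown from the bone marrow of mice that lose Mettl3 in the myeloid lineage were compared with macrophages of mice that keep the gene. The comparison holds 4 of the 8 libraries of the series, chosen by their genotype and treatment labels: 2 libraries of Lyz2-Cre-Mettl3fl/fl cells given PBS (KO 1 and KO 2) and 2 of Mettl3fl/fl cells given PBS (WT 1 and WT 2). It was read across 17470 tested genes of the 55401 in the table. The other 4 libraries, 2 of each genotype, came from cells given LPS at 50 ng/ml overnight and then nigericin at 10 µM, for 3 h by the sample labels and for 1 h or 3 h by the series text. They are called stimulated WT 1, stimulated WT 2, stimulated KO 1 and stimulated KO 2 below and are used for the estimate of spread and for a view side by side. Every group carries the loxP-flanked (fl) Mettl3 alleles, and the KO groups alone carry Cre, so a part of Cre itself and a part of the deletion cannot be told apart. Cre is driven by the gene of macrophage lysozyme, Lyz2, so a cell in which that gene had not been active would keep Mettl3. The sources used here do not give the age of the mice or how many mice or cultures stand behind a library, so a p-value reflects nothing but how far these libraries lie apart, and that spread may be technical.

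Within the complex that methylates adenosine inside messenger RNA, METTL3 carries out the reaction, which leaves the mark known as m6A. METTL14 and WTAP are its partners, FTO and ALKBH5 remove the mark, and proteins with a YTH domain read it, YTHDF2 being known for hastening the decay of marked transcripts. Bone marrow-derived macrophages are a standard model of the resting phagocyte: they take up particles and lipids through surface receptors, degrade them in lysosomes, secrete complement and, at a level set by interferons and other signals, present antigen on MHC molecules.

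The 8 libraries held 55032057 to 65487739 counts, and the 4 PBS libraries 2.91% to 3.36% mitochondrial counts. Libraries of the same group differed by a median absolute log2 ratio of 0.173 in WT and 0.182 in KO. The first principal component (62.5% of the variance) separated the treatments, and the second (11%) separated KO from WT at either treatment. Genes that define macrophages were abundant at either genotype. Csf1r, the receptor for the growth factor CSF1, stood at 3936 and 3861 CPM in WT and 4669.6 and 4970.3 CPM in KO, Adgre1, which encodes F4/80, at 1832 and 1840.0 CPM in WT and 1621 and 1660.2 CPM in KO, and Cd68 at 1999 and 2200.2 CPM in WT and 2015 and 2086 CPM in KO, and none of these 3 passed the test. Xist had 0 counts in every PBS library while Eif2s3y, on the Y chromosome, was counted in all 4, which is the pattern of male cells. Levels are given as CPM, counts scaled to a common library total after TMM normalization. A difference is the log2 ratio of KO to WT with its standard error (SE) from edgeR's quasi-likelihood fit, and a gene was called at a Benjamini-Hochberg adjusted p under 0.05. The gene lists used below and their members were chosen with earlier results of these data known. Their counts and medians are therefore a description and not a test of a process.

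Mettl3 itself (ENSMUSG00000022160, GRCm38 chr14:52294841-52305128, minus strand) was counted at 13.6 and 13.3 CPM in WT and 5.63 and 6.33 CPM in KO. The groups did not overlap, and the difference was -1.17 ± 0.14 (SE, adjusted p 0.0143), a fall that left counts in both KO libraries. In bulk RNA, fewer cells of a type and less RNA per cell cannot be told apart. Counts cover all exons of the gene, so a transcript missing just the deleted exons would still count. Tox4 on the opposite strand shares 933 exonic bases with Mettl3, and whether the counting used strand is not given in the sources used here. Leaving out 1 library ended the call of Mettl3 (without any single PBS library, adjusted p up to 0.0805). Among the 24 tested genes that write, erase or read m6A, Mettl3 was the only call, 0 rose, and the median difference was 0.09 against 0 for all tested genes, of which 1.55% were called (1.2% higher and 0.355% lower). DESeq2 called 3 members higher and 2 lower, and 3 and 2 lay at an unadjusted p under 0.05 by edgeR. The partner Mettl14 stood at 15.2 and 14.4 CPM in WT and 16.8 and 15.2 CPM in KO, with a difference of 0.11 (adjusted p 0.732), and Wtap at 88.1 and 79.8 CPM in WT and 65.4 and 90.6 CPM in KO, with -0.11 (adjusted p 0.857).

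Lyz2, which encodes lysozyme M and whose locus drives Cre, was counted at 32744 and 35400.2 CPM in WT and 16776 and 17514 CPM in KO (GRCm38 chr10:117277331-117282321, minus strand). Both KO libraries lay well under both WT libraries, with a difference of -0.99 ± 0.06 (SE, adjusted p 0.00157). Only the KO cells carry Cre under this locus, so a part of the Cre allele and a part of the Mettl3 deletion in the fall of Lyz2 cannot be told apart. The neighbour of Lyz2, Lyz1, which encodes lysozyme P, rose from 53.1 and 78.6 CPM in WT to 173 and 186 CPM in KO, by 1.45 ± 0.19 (SE, adjusted p 0.0204). Lyz1 and Lyz2 are close copies, so reads could have been split between them. With 1 library left out, calls were lost for Lyz1 (without WT 1, KO 1 or KO 2, adjusted p up to 0.109). Lyz2 stayed called in all 8 such fits. Within 5 Mb of Mettl3, 3 of 146 tested genes were called besides Mettl3 (Mmp14 and Pnp higher, Slc7a8 lower, 2.05%), and within 5 Mb of Lyz2 the only call of 56 was Lyz1 (1.79%).

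In all, 271 genes were called, 209 higher and 62 lower in KO, and 2690 lay at an unadjusted p under 0.05. The called genes differed by a median of 0.94 in absolute log2 ratio, and 102 of the genes that rose and 18 of those that fell did so by at least 2-fold. An average level of 10 CPM or more in the higher genotype was reached by 134 of the rises and 52 of the falls. Protein-coding genes made up 189 of the rises and 55 of the falls. In all 271 genes the KO and WT libraries did not overlap, which held for 24.6% (higher) and 24% (lower) of all tested genes. The share of calls that were rises was 77.1% here, 82.5% with library size as the only scaling and 65.3% by DESeq2, which called 572 higher and 304 lower.

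With 2 libraries a side the count moved with the libraries used. It was 74 higher and 17 lower without WT 1, 102 and 19 without WT 2, 81 and 31 without KO 1, and 56 and 24 without KO 2. The stimulated libraries enter the estimate of spread. Without stimulated KO 1 the count was 100 and 32, without stimulated KO 2 100 and 31, without stimulated WT 1 196 and 64 and without stimulated WT 2 186 and 68. A fit of the 4 PBS libraries alone called 33 higher and 12 lower. A core of 49 genes, 42 higher and 7 lower, was called in all 8 fits that left out 1 library and also by DESeq2 and limma-voom. Besides genes described below, it holds Cd38 (an ectoenzyme that consumes NAD), Il1rl2 (the receptor for IL-36), Cd55 (which limits complement on the cell surface), Slamf8, Ly6i and Slc2a6 among the rises, and Gpr176 among the falls.

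**Figure D1:**
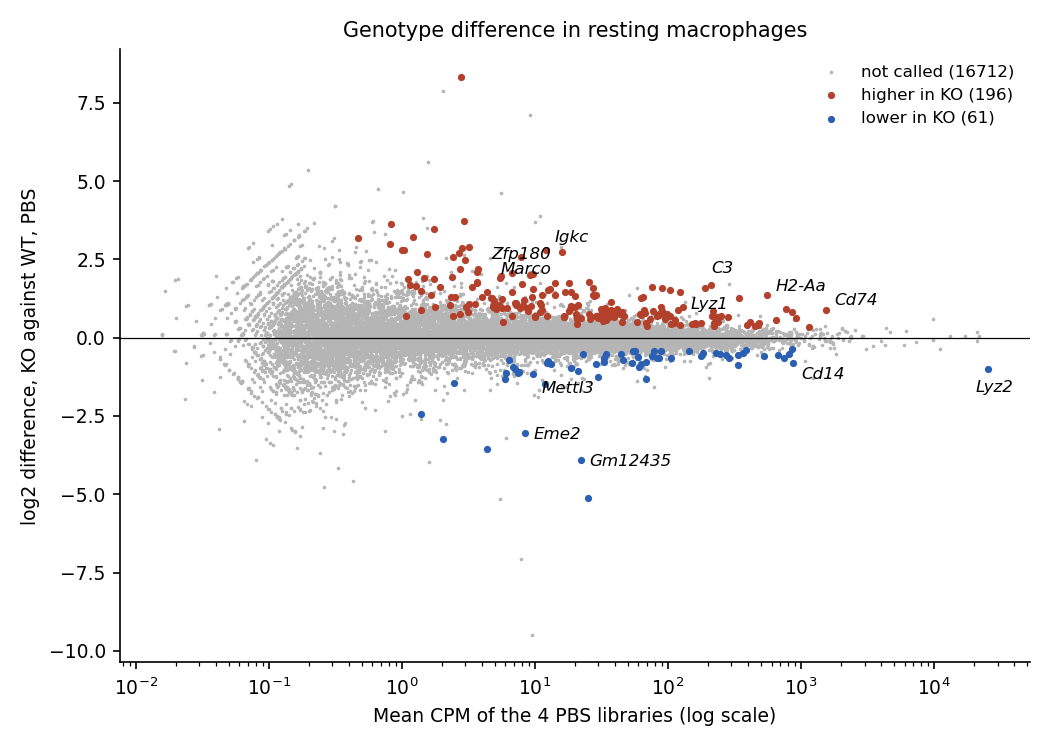
Log2 difference between KO and WT with PBS against the mean CPM of the 4 PBS libraries (log axis) for 16969 tested genes, with 501 tested genes at 0 counts in a genotype left out. Red points are the 196 drawn genes called higher and blue points the 61 called lower, and Lyz2 is the most abundant of the called genes.

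**Figure D2:**
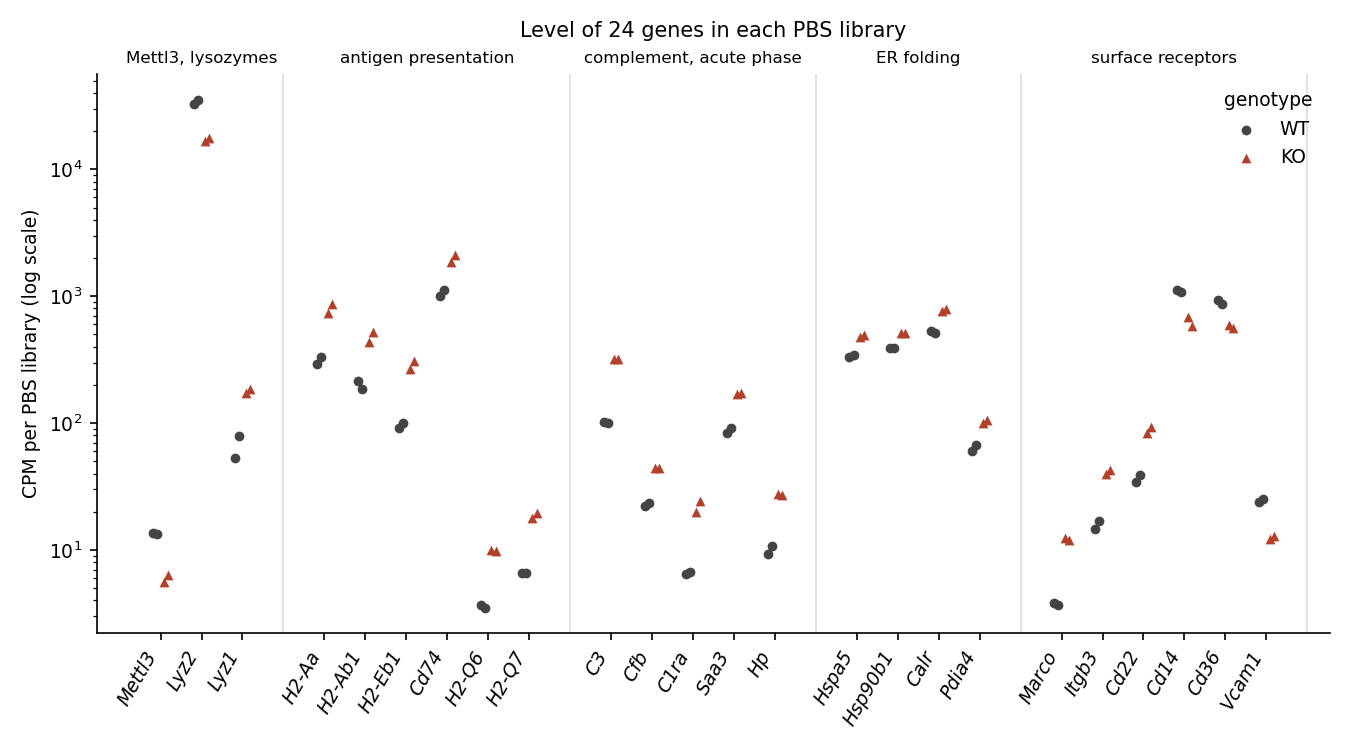
CPM (log axis) of 24 genes in each PBS library, grouped by role, with WT as circles and KO as triangles, 2 libraries each. In every gene shown the triangles and circles do not overlap.

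Among 14 tested genes of antigen presentation on MHC class II 6 were called higher and 0 lower, the median difference was 0.77, and 11 were positive. The alpha chain H2-Aa and the beta chains H2-Ab1 and H2-Eb1 form the peptide-binding dimers, Cd74 is the invariant chain that escorts them, and H2-DMa and H2-DMb1 form the exchange factor that loads peptide. Both H2-Aa and H2-Eb1 carry, just before their RefSeq start sites, a Y box (ctgattgg, searched on both strands), the inverted CCAAT element that class II promoters are known for. The 250 bases before the start are shown to set the element beside the values that follow, with the Y box in capitals, from RefSeq on GRCm38.p6: H2-Aa at chr17:34287824-34288073 on the minus strand and H2-Eb1 at chr17:34305617-34305866 on the plus strand.
H2-Aa: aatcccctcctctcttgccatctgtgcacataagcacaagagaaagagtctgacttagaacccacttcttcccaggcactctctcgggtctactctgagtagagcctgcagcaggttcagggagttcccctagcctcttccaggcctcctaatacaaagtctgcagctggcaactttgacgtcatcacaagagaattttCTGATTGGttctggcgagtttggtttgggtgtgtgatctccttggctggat
H2-Eb1: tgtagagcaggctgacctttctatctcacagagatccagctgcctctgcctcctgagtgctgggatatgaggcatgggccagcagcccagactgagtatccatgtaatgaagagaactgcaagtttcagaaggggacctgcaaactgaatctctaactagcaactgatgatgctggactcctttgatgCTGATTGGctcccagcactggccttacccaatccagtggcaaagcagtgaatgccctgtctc

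The box begins 51 bases before the start of H2-Aa and 62 before that of H2-Eb1. It is not particular to these genes: 4.1% of all 32851 windows of 300 bases held it, as did 8.18% of the 159 genes called higher with a window, 17% of the 47 called lower and 6.6% of tested genes. The windows of H2-DMa and H2-DMb1 did not hold these exact letters, which says only that this spelling is not there.

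H2-Aa was counted at 295 and 335 CPM in WT and 744 and 865 CPM in KO, a difference of 1.35 ± 0.12 (SE, adjusted p 0.00433). H2-Ab1 stood at 216 and 185 CPM in WT and 439 and 519 CPM in KO, a difference of 1.26 ± 0.14 (SE, adjusted p 0.0108). H2-Eb1 stood at 90.7 and 99.4 CPM in WT and 267 and 308 CPM in KO, a difference of 1.60 ± 0.21 (SE, adjusted p 0.0188). In each of these 3 chains both KO libraries stood well above both WT libraries. Cd74 stood at 1007 and 1128 CPM in WT and 1850.2 and 2126 CPM in KO, a difference of 0.90 ± 0.11 (SE, adjusted p 0.0167). H2-DMb1 rose by 0.88 ± 0.12 (SE, adjusted p 0.0204) and H2-DMa by 0.66 ± 0.11 (SE, adjusted p 0.038). Ciita, the master activator of class II genes, stood at 15.7 and 15.6 CPM in WT and 27.5 and 40.2 CPM in KO, without overlap, but its difference of 1.11 ± 0.40 (SE, adjusted p 0.253) did not pass. The count of 6 was 1 without KO 2, 2 without WT 2 and 3 without WT 1, KO 1, stimulated KO 1 or stimulated KO 2, and 2 in the fit of the PBS libraries alone. Calls lost on leaving out 1 library were those of H2-Ab1 (without WT 2 or KO 2, adjusted p up to 0.0611), H2-Eb1 (without any single PBS library or either of the stimulated KO libraries, adjusted p up to 0.118) and Cd74 (without WT 1, WT 2 or KO 2, adjusted p up to 0.0963). Also lost were the calls of H2-DMb1 (without WT 1, KO 1, KO 2 or either of the stimulated KO libraries, adjusted p up to 0.11) and H2-DMa (without any single PBS library, either of the stimulated KO libraries or stimulated WT 2, adjusted p up to 0.205). H2-Aa stayed called in all 8 such fits.

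B cells and dendritic cells also express MHC class II, and their markers were measured beside these genes. The 8 tested dendritic cell markers had a median difference of 0.37, with 6 positive. They gave 0 calls by edgeR and limma-voom and 1 higher by DESeq2, with 2 higher and 0 lower at an unadjusted p under 0.05. Their summed level was 221 to 233 CPM in WT and 264 to 292 CPM in KO, and Flt3, which defines dendritic precursors, had 0 counts. Most of that sum is Itgax, which macrophages express too, at 218 and 230.3 CPM in WT and 259 and 287 CPM in KO. Of 11 tested B and plasma cell markers 10 were positive, with a median difference of 2.80, and 4 were called higher. The summed level of this list was 56.9 to 57.5 CPM in WT and 79.1 to 87.4 CPM in KO. Most of the WT sum is Ighm, which stood lower in KO without passing, so the sum understates the rise of the called members. Among these, Igkc stood at 4.01 and 2.12 CPM in WT and 21.3 and 21.4 CPM in KO. Of the markers that define B cells, Ms4a1 had 0 and 0 counts in WT and 0 and 4 in KO, and Pax5 had 0 and 0 in WT and 4 and 11 in KO. The part of either cell type in the class II rise was not tested.

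Class I presentation moved in a few members. Of 21 tested genes 3 rose and 0 fell, with a median difference of 0.20. H2-Q6 and H2-Q7, of the non-classical class I genes, stood at 3.68 and 3.5 CPM in WT and 9.98 and 9.9 CPM in KO and at 6.6 and 6.54 CPM in WT and 17.9 and 19.6 CPM in KO, and they rose by 1.47 ± 0.07 (SE, adjusted p 0.000718) and 1.51 ± 0.07 (SE, adjusted p 0.000718). H2-K1, a classical class I heavy chain, stood at 722 and 518 CPM in WT and 1085 and 1122 CPM in KO and rose by 0.83 ± 0.14 (SE, adjusted p 0.0429). The other classical heavy chain, H2-D1, stood at 4315 and 4432 CPM in WT and 4926 and 5096 CPM in KO, with a difference of 0.20 (adjusted p 0.181), and the light chain B2m at 2700.3 and 2929 CPM in WT and 2889 and 2893 CPM in KO, with 0.04 (adjusted p 0.874). H2-M2, a further class I gene outside the list, was counted at 6.95 and 9.76 CPM in WT and 27.3 and 28.7 CPM in KO and rose by 1.74 ± 0.15 (SE, adjusted p 0.00433). H2-Q6, H2-Q7 and H2-K1 belong to a family of near-identical genes between which reads can be split, so the split among them is uncertain. The count of 3 was 5 with library size alone, 6 by DESeq2 and 1 in the fit of the PBS libraries alone. A single library left out ended the call of H2-K1 (without KO 1, KO 2 or any single stimulated library, adjusted p up to 0.181). H2-Q6, H2-Q7 and H2-M2 stayed called in all 8 such fits.

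Interferon-stimulated genes held 6 rises and 0 falls among 54 tested, with a median difference of 0.20 and 38 of 54 positive. Lgals3bp, a secreted glycoprotein, stood at 521 and 547 CPM in WT and 985 and 1052 CPM in KO, a difference of 0.93 ± 0.07 (SE, adjusted p 0.0025). Irf7, the transcription factor that amplifies type I interferon, stood at 22.9 and 27.6 CPM in WT and 42 and 43.8 CPM in KO and rose by 0.76 ± 0.10 (SE, adjusted p 0.0167). Neither gene overlapped between genotypes. Ifi44 stood at 1.9 and 2.14 CPM in WT and 4.0 and 4.04 CPM in KO and rose by 0.99 ± 0.11 (SE, adjusted p 0.0132). Oas2, a synthase of the 2′-5′ oligoadenylates that activate RNase L, stood at 27.5 and 28.7 CPM in WT and 41.8 and 47.2 CPM in KO and rose by 0.66 ± 0.10 (SE, adjusted p 0.027). In these genes too no WT library reached a KO library. Oasl1 and Oas1g, of the same enzyme family, were the other 2 rises, by 0.51 (adjusted p 0.0335) and 0.43 (adjusted p 0.0300). Members that respond strongly to interferon did not pass: Isg15 differed by 0.54 (adjusted p 0.0973), Ifit1 by -0.09 (adjusted p 0.922), Mx1 by 0.18 (adjusted p 0.816) and Cxcl10 by -0.07 (adjusted p 0.918). An interferon-stimulated response element (GAAA, any 2 bases and GAAA again, both strands) was found in the window of 1 of the 5 called members that have one, Oas1g, and in 24 of 36 uncalled members, against 3.44% of all windows. Over all genes with a window, 10 of 159 called higher (6.29%), 1 of 47 called lower (2.13%) and 444 of 11107 tested (4.0%) held it. A window without a match lacks only this spelling, and near spellings were not searched. The count of 6 was 2 without WT 1 or KO 2 and 3 without WT 2, KO 1, stimulated KO 1 or stimulated KO 2, 15 by DESeq2 and 1 in the fit of the PBS libraries alone. Dropping 1 library ended the call of Irf7 (without WT 1, KO 1 or KO 2, adjusted p up to 0.103), Ifi44 (without any single PBS library, adjusted p up to 0.0848) and Oas2 and Oas1g (without any single PBS library or either of the stimulated KO libraries, adjusted p up to 0.15 and 0.17). The same held for Oasl1 (without any single PBS library or any single stimulated library, adjusted p up to 0.186). Lgals3bp stayed called in all 8 such fits.

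The genes in the title of the series did not pass at rest. Zbp1, which senses nucleic acids in the Z form, stood at 10.5 and 14.2 CPM in WT and 15.6 and 20 CPM in KO. The KO libraries lay above the WT ones, but its difference of 0.53 ± 0.16 (SE, adjusted p 0.195) did not pass. Nlrp3, the sensor of the inflammasome that nigericin triggers, stood at 34.9 and 39.3 CPM in WT and 38.9 and 38.8 CPM in KO, with overlapping groups and a difference of 0.07 ± 0.12 (SE, adjusted p 0.871). Of 27 tested genes of inflammasomes, pyroptosis and necroptosis 1 rose and 0 fell, with a median of 0.17. The rise was Mefv, which encodes pyrin, an inflammasome sensor, at 7.75 and 8.03 CPM in WT and 22.6 and 18.3 CPM in KO, a difference of 1.37 ± 0.11 (SE, adjusted p 0.00335). Il1b stood at 15.7 and 13.5 CPM in WT and 15.4 and 12.8 CPM in KO, with -0.05 (adjusted p 0.907). Of 25 tested sensors of double-stranded RNA, Oas2 was the only rise and 0 fell, with a median of 0.10. The list holds Adar, which edits double-stranded RNA, at 0.10 (adjusted p 0.706), and Ifih1, which encodes MDA5, at 0.01 (adjusted p 0.988). Leaving out 1 library ended the call of Oas2 (without any single PBS library or either of the stimulated KO libraries, adjusted p up to 0.15). Mefv stayed called in all 8 such fits.

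Among 31 tested NF-kB targets, cytokines and chemokines, 4 rose and 0 fell, with a median difference of 0.10. Ccl5, a chemokine for T cells and monocytes, stood at 149.7 and 175 CPM in WT and 258 and 271 CPM in KO and rose by 0.70 ± 0.09 (SE, adjusted p 0.0201). Ccl2, which attracts monocytes, was scarce, at 2.1 and 2.44 CPM in WT and 3.8 and 4.15 CPM in KO, and rose by 0.81 ± 0.13 (SE, adjusted p 0.0406). Icam1, the adhesion ligand of the beta 2 integrins, stood at 61.1 and 59.8 CPM in WT and 78 and 79.1 CPM in KO and rose by 0.38 ± 0.05 (SE, adjusted p 0.0256). Saa3 is described with the acute-phase genes. None of these KO values overlapped the WT values. Tnf differed by -0.26 (adjusted p 0.455), Cxcl1 by -0.93 (adjusted p 0.374) and Nfkbia by 0.11 (adjusted p 0.595). An NF-kB site (GGGA, any base and TTTCC, both strands), held by 0.411% of all windows, was in neither the Saa3 nor the Icam1 window. Ccl2 and Ccl5 had no window to search, and 6 of 17 uncalled members with a window held the site. Over all genes with a window, 3 of 159 called higher (1.89%), 0 of 47 called lower and 63 of 11107 tested (0.567%) held it. Near spellings were not searched here either. Of 21 tested Toll-like receptors and adaptors 0 rose and 1 fell. That gene was Cd14, the co-receptor that hands LPS to TLR4, at 1121 and 1081 CPM in WT and 689.8 and 578 CPM in KO, a difference of -0.80 ± 0.09 (SE, adjusted p 0.0128). Tlr4 itself was uneven between libraries, at 29.6 and 13.3 CPM in WT and 13.9 and 12.3 CPM in KO. Icam1 shares 511 exonic bases with Gm47079 on the opposite strand. The count of 4 was 1 without WT 1, KO 1, KO 2, stimulated KO 1 or stimulated KO 2 and 2 without WT 2, and 1 in the fit of the PBS libraries alone. With 1 library left out, calls were lost for Ccl5 (without WT 1, KO 1, KO 2 or either of the stimulated KO libraries, adjusted p up to 0.115), Ccl2 (without any single PBS library or any single stimulated library, adjusted p up to 0.206) and Icam1 (without any single PBS library or either of the stimulated KO libraries, adjusted p up to 0.153). Further calls lost were those of Cd14 (without WT 1 or WT 2, adjusted p up to 0.0679).

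Of 16 tested complement genes 4 were called higher and 0 lower, with a median difference of 0.50 and 12 of 16 positive. C3, the protein on which all complement pathways converge (GRCm38 chr17:57203970-57228136, minus strand), was counted at 103 and 100.2 CPM in WT and 321 and 323 CPM in KO, a difference of 1.67 ± 0.07 (SE, adjusted p 0.000472). Cfb, the protease subunit of the alternative pathway convertase, stood at 22.3 and 23.4 CPM in WT and 44.4 and 44.2 CPM in KO, and rose by 0.95 ± 0.05 (SE, adjusted p 0.00126). C1ra, a protease of the C1 complex, stood at 6.41 and 6.69 CPM in WT and 19.8 and 24.1 CPM in KO and rose by 1.74 ± 0.12 (SE, adjusted p 0.00204), and C1qa, a chain of its recognition subunit, stood at 728 and 715 CPM in WT and 1115 and 1106 CPM in KO and rose by 0.62 ± 0.08 (SE, adjusted p 0.0189). In each of the 4 the KO libraries stood apart from the WT ones. The neighbouring C1q chains C1qb and C1qc differed by 0.26 (adjusted p 0.154) and 0.31 (adjusted p 0.0902), and the inhibitor Serping1 by 0.93 (adjusted p 0.0663). Stromal cells are another source of C3, C1r and C1s, and 6 of 16 tested stromal markers rose as well, with sums of 372 to 416 CPM in WT and 603 to 637 CPM in KO. Their part in the complement rise was not tested. The count was 7 with library size alone and 9 by DESeq2. Cfb shares 2246 exonic bases with the read-through gene Gm20547 on its own strand. Calls lost on leaving out 1 library were those of C1qa (without any single PBS library or either of the stimulated KO libraries, adjusted p up to 0.107). C3, Cfb and C1ra stayed called in all 8 such fits.

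Acute-phase proteins, a family chosen after its values were seen, gave 4 rises and 0 falls among 11 tested genes, with a median difference of 0.83. Saa3, a serum amyloid A of macrophages, stood at 82.9 and 91.8 CPM in WT and 168 and 174 CPM in KO, a difference of 0.97 ± 0.07 (SE, adjusted p 0.00204). Hp, which encodes haptoglobin, a binder of free haemoglobin, stood at 9.35 and 10.7 CPM in WT and 27.7 and 26.9 CPM in KO and rose by 1.44 ± 0.14 (SE, adjusted p 0.00584). The libraries of each genotype were close together and far from those of the other. Cp, which encodes the ferroxidase ceruloplasmin, stood at 5.45 and 4.59 CPM in WT and 11 and 12 CPM in KO and rose by 1.20 ± 0.11 (SE, adjusted p 0.00515). Slpi, an inhibitor of neutrophil proteases, stood at 4.05 and 4.32 CPM in WT and 7.66 and 8.54 CPM in KO and rose by 0.95 ± 0.10 (SE, adjusted p 0.0108). In neither did a WT library reach a KO library. A single library left out ended the call of Slpi (without WT 1, WT 2 or KO 2, adjusted p up to 0.0698). Saa3, Hp and Cp stayed called in all 8 such fits.

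The list of ATF4 targets and the unfolded protein response held 4 rises and 0 falls among 28 tested genes, all 4 of them chaperones or oxidoreductases, with a list median of 0.10. Hspa5 encodes BiP, the main chaperone of the compartment, Hsp90b1 its HSP90, Calr the lectin chaperone calreticulin, and Pdia4 a disulfide isomerase. The disulfide isomerase family, chosen after its values were seen, added Pdia3 and Pdia6 (3 rises of 5 tested). An ER stress response element (CCAAT, any 9 bases and CCACG, both strands), the site known to bind ATF6 with NF-Y, lies upstream of 4 of these 6 genes. The 250 bases before each RefSeq start on GRCm38.p6 are shown to compare its place and copies, with the elements in capitals: Hspa5 at chr2:34771840-34772089 on the plus strand, Hsp90b1 at chr10:86705445-86705694 on the minus strand, Calr at chr8:84846932-84847181 on the minus strand and Pdia6 at chr12:17266339-17266588 on the plus strand.
Hspa5: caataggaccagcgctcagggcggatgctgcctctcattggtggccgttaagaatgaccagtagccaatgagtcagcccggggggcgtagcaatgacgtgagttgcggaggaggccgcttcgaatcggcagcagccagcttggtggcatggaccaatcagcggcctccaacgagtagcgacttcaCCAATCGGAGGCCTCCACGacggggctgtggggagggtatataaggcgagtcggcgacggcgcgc
Hsp90b1: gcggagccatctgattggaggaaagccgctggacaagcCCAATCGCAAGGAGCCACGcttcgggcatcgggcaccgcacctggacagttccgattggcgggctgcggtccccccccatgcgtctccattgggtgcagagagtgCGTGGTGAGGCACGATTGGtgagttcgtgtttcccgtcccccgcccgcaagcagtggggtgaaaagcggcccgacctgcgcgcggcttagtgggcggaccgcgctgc
Calr: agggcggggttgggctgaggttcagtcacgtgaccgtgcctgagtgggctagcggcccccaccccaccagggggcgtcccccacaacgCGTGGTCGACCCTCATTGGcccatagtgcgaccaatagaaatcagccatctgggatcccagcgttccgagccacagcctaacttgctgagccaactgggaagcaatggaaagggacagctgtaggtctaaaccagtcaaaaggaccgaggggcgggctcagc
Pdia6: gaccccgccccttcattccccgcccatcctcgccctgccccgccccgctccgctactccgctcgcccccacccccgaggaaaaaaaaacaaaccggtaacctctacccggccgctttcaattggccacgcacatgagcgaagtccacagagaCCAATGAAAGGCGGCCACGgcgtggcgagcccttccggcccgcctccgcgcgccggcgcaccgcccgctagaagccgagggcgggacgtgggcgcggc

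Hspa5 and Pdia6 hold 1 copy each on the strand of the gene, beginning 65 and 98 bases before the start. Calr holds 1 on the opposite strand, beginning 162 bases before the start, and Hsp90b1 holds 1 on either strand, beginning 212 and 107 bases before. The element is rare: 0.119% of 32851 windows and 20 of 11107 tested genes with a window (0.18%) held it, against 5 of 159 genes called higher (3.14%) and 0 of 47 called lower. The fifth is Xlr3b, which rose by 2.58 (adjusted p 0.0152). Of the 20 tested genes that hold it 15 were positive, with a median difference of 0.17, and 5 rose. Some of the positive ones were barely counted, such as Xlr3a at a mean of 0.146 CPM in WT and 0.538 CPM in KO. Canx and Creld2, of the same list, hold it and did not pass, with -0.02 (adjusted p 0.948) and 0.03 (adjusted p 0.923). Dnajc3 and Syvn1 hold it too, with -0.04 (adjusted p 0.823) and -0.17 (adjusted p 0.276). Pdia3 and Pdia4 rose without these letters in their windows, which says only that this spelling is not there.

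Hspa5 was counted at 335 and 346 CPM in WT and 476 and 491 CPM in KO, a difference of 0.51 ± 0.06 (SE, adjusted p 0.0171). Hsp90b1 stood at 394 and 391 CPM in WT and 509.6 and 515 CPM in KO, a difference of 0.38 ± 0.05 (SE, adjusted p 0.0222). Calr stood at 532 and 514 CPM in WT and 767 and 793 CPM in KO, a difference of 0.58 ± 0.06 (SE, adjusted p 0.00907). The libraries of each genotype were close to each other in these genes and the genotypes did not overlap. Pdia4 stood at 60.4 and 67.5 CPM in WT and 99.3 and 106 CPM in KO and rose by 0.68 ± 0.09 (SE, adjusted p 0.0204), Pdia3 rose by 0.44 ± 0.07 (SE, adjusted p 0.0300) and Pdia6 by 0.47 ± 0.07 (SE, adjusted p 0.0302). The regulators of the response did not pass: Atf4 differed by -0.33 (adjusted p 0.701), Xbp1 by -0.19 (adjusted p 0.481), Atf6 by -0.35 (adjusted p 0.155) and Ddit3 by 0.01 (adjusted p 0.986). Herpud1 and Manf, further secretory-stress genes, differed by 0.50 (adjusted p 0.0822) and 0.43 (adjusted p 0.0915). Hsp90b1 shares 415 exonic bases with 1810014B01Rik on the opposite strand. The count of 4 was 0 without WT 1, WT 2 or KO 2 and 1 without KO 1, stimulated KO 1 or stimulated KO 2, 7 by DESeq2 and 0 in the fit of the PBS libraries alone. Dropping 1 library ended the call of Hspa5, Hsp90b1, Pdia4, Pdia3 and Pdia6 (without any single PBS library or either of the stimulated KO libraries, adjusted p up to 0.114, 0.133, 0.119, 0.167 and 0.179) and Calr (without WT 1, WT 2 or KO 2, adjusted p up to 0.0684).

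Of 33 tested lysosomal genes 4 rose and 0 fell, with a median difference of 0.05. Ctsk, a collagen-degrading cathepsin known from osteoclasts, stood at 52.1 and 54.8 CPM in WT and 145 and 164 CPM in KO, a difference of 1.53 ± 0.09 (SE, adjusted p 0.00126). Ctsc, which activates serine proteases of granules, stood at 189 and 197 CPM in WT and 316 and 302 CPM in KO and rose by 0.68 ± 0.06 (SE, adjusted p 0.00584). The glycosidases Glb1 and Gaa stood at 146 and 151 CPM in WT and 193 and 214 CPM in KO and at 134 and 142 CPM in WT and 177 and 194 CPM in KO, and they rose by 0.46 ± 0.07 (SE, adjusted p 0.0373) and 0.42 ± 0.07 (SE, adjusted p 0.0409). None of the 4 overlapped between genotypes. Other lysosomal genes such as Ctsb, Ctsd and Lamp1 did not pass, with -0.11 (adjusted p 0.374), 0.05 (adjusted p 0.752) and 0.05 (adjusted p 0.798). Hgsnat and Fuca2, lysosomal enzymes outside the list that were chosen after their values were seen, rose by 0.47 (adjusted p 0.0404) and 0.84 (adjusted p 0.0135). The lysosomal count of 4 was 1 without WT 1 and 2 without WT 2, KO 1, KO 2, stimulated WT 2, stimulated KO 1 or stimulated KO 2, and 1 in the fit of the PBS libraries alone. Leaving out 1 library ended the call of Ctsc (without WT 1, adjusted p up to 0.0513), Glb1 (without any single PBS library, either of the stimulated KO libraries or stimulated WT 2, adjusted p up to 0.205) and Gaa (without any single PBS library or any single stimulated library, adjusted p up to 0.22). Also lost were the calls of Hgsnat (without any single PBS library or either of the stimulated KO libraries, adjusted p up to 0.215) and Fuca2 (without WT 2, KO 1 or KO 2, adjusted p up to 0.0888). Ctsk stayed called in all 8 such fits. Summed osteoclast markers overlapped between genotypes, at 2169 to 2262 CPM in WT and 2177 to 2281 CPM in KO, 2 of 13 tested rose (Ctsk and Itgb3) and 0 fell, and Calcr, the calcitonin receptor, had 0 counts.

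Of 16 tested matrix proteases and inhibitors Mmp14 rose and Timp2 fell, with a list median of 0.07. Mmp14, a membrane-bound collagenase, stood at 62.5 and 58.3 CPM in WT and 109.8 and 126 CPM in KO, a difference of 0.96 ± 0.08 (SE, adjusted p 0.00453). Timp2, an inhibitor that also binds MMP14 on the cell surface, stood at 952 and 982 CPM in WT and 742 and 753 CPM in KO, a difference of -0.37 ± 0.06 (SE, adjusted p 0.0364). The KO libraries were thus above WT in the protease and below WT in the inhibitor, without overlap. Of 20 tested integrins and adhesion genes 4 rose and 0 fell, with a median of 0.10. Itgb3, a beta chain of the vitronectin receptor, stood at 14.7 and 17.1 CPM in WT and 39.8 and 42.9 CPM in KO and rose by 1.38 ± 0.15 (SE, adjusted p 0.0108). Itgb2, the common beta chain of leukocyte integrins, stood at 1009 and 1011 CPM in WT and 1255 and 1286 CPM in KO and rose by 0.33 ± 0.05 (SE, adjusted p 0.0355). Selplg, a ligand of selectins, stood at 130.4 and 182 CPM in WT and 274 and 288 CPM in KO and rose by 0.85 ± 0.15 (SE, adjusted p 0.0484). Icam1 was the other. Vcam1, an adhesion molecule outside the list, fell from 24 and 25.3 CPM in WT to 12.1 and 12.8 CPM in KO, a difference of -0.98 ± 0.09 (SE, adjusted p 0.00578). The adhesion count of 4 was 0 without WT 1 or KO 2 and 1 without KO 1, stimulated KO 1 or stimulated KO 2, and 1 in the fit of the PBS libraries alone. With 1 library left out, calls were lost for Timp2, Itgb2 and Icam1 (without any single PBS library or either of the stimulated KO libraries, adjusted p up to 0.17, 0.186 and 0.153), Itgb3 (without WT 1 or KO 2, adjusted p up to 0.0707) and Selplg (without WT 1, KO 1, KO 2 or any single stimulated library, adjusted p up to 0.193). Mmp14 and Vcam1 stayed called in all 8 such fits.

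The macrophage core genes gave 2 rises (Lyz1 and Itgb2) and 3 falls (Cd14 and, at the locus that drives Cre, Lyz2 among them) among 28 tested, with a median difference of 0.05. Of 21 tested genes of lipid uptake, binding and efflux 0 rose and 1 fell, with a median of 0.04. It was Cd36, a scavenger receptor for oxidised lipoproteins and fatty acids, at 939 and 871 CPM in WT and 591 and 558 CPM in KO, a difference of -0.66 ± 0.07 (SE, adjusted p 0.0127). The scavenger receptor Marco, which binds bacteria and particles, rose. It was scarce in resting cells, at 3.79 and 3.65 CPM in WT and 12.4 and 12 CPM in KO, and it rose by 1.71 ± 0.07 (SE, adjusted p 0.000472) without overlap. Marco was the only call of 15 tested genes of alternative activation (1 higher, 0 lower, median 0.19), and Mrc1, which encodes the mannose receptor, differed by 0.32 (adjusted p 0.198). The counts of the macrophage core were 0 without WT 1, KO 1 or KO 2 and 1 without stimulated KO 1 or stimulated KO 2 for rises and 1 without WT 2 for falls. Calls lost on leaving out 1 library were those of Lyz1 and Cd36 (without WT 1, KO 1 or KO 2, adjusted p up to 0.109 and 0.0888), Itgb2 (without any single PBS library or either of the stimulated KO libraries, adjusted p up to 0.186) and Cd14 (without WT 1 or WT 2, adjusted p up to 0.0679). Lyz2 and Marco stayed called in all 8 such fits.

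Several families of myeloid surface receptors, chosen after their values were seen, rose in part or whole. Of 8 tested Siglecs, which bind sialic acid and mostly carry inhibitory motifs, 4 rose and 0 fell, with a median difference of 0.97. Cd22 stood at 34.6 and 38.8 CPM in WT and 83.4 and 93 CPM in KO, a difference of 1.27 ± 0.10 (SE, adjusted p 0.00273), although B cells are its usual source. Of 11 tested B and plasma cell markers 4 rose, 0 fell and 10 were positive, with a median difference of 2.80. The sums of this list were 56.9 to 57.5 CPM in WT and 79.1 to 87.4 CPM in KO. Ighm, most of the WT sum, stood lower in KO without passing. The part of these markers' cells in the Cd22 rise was not tested. Siglec1, Siglecf and Siglece rose by 0.67 (adjusted p 0.0467), 1.57 (adjusted p 0.00605) and 2.69 (adjusted p 0.0128). All 3 paired immunoglobulin-like type 2 receptors rose: Pilra, the inhibitory one, by 1.06 (adjusted p 0.00204), and the activating Pilrb1 and Pilrb2 by 0.69 (adjusted p 0.028) and 1.27 (adjusted p 0.026). The formyl peptide receptors Fpr1 and Fpr2, which sense bacterial peptides, rose by 2.20 (adjusted p 0.0034) and 1.95 (adjusted p 0.00979). Fpr1 stood at 1.17 and 0.782 CPM in WT and 4.07 and 4.9 CPM in KO and Fpr2 at 0.737 and 1.2 CPM in WT and 4.07 and 3.46 CPM in KO, so both were scarce at rest and did not overlap between genotypes. Of 20 tested C-type lectins 3 rose (Clec4a1, Clec4n and Clec5a) and 0 fell, with a median of 0.32. The adjacent membrane genes Tmem176a and Tmem176b stood at 13 and 13.9 CPM in WT and 40.1 and 41.5 CPM in KO and at 37.4 and 37.9 CPM in WT and 91 and 95.3 CPM in KO, and rose by 1.60 ± 0.08 (SE, adjusted p 0.000994) and 1.31 ± 0.10 (SE, adjusted p 0.0025). Pilrb1 and Pilrb2 are close copies, Pilra shares 468 exonic bases with Zcwpw1 and Cd22 479 with Gm29439, each on the opposite strand. A single library left out ended the call of Siglec1, Pilrb1 and Clec4a1 (without any single PBS library or either of the stimulated KO libraries, adjusted p up to 0.205, 0.134 and 0.206), Siglecf (without WT 1 or KO 2, adjusted p up to 0.0518) and Siglece (without KO 1 or KO 2, adjusted p up to 0.0701). The same held for Pilrb2 (without WT 1, KO 1, KO 2 or either of the stimulated KO libraries, adjusted p up to 0.124) and Clec4n (without any single PBS library, either of the stimulated KO libraries or stimulated WT 2, adjusted p up to 0.206). Cd22, Pilra, Fpr1, Fpr2, Clec5a, Tmem176a and Tmem176b stayed called in all 8 such fits.

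Of the 12 widest rises averaging 10 CPM or more in the higher genotype, predicted genes aside, 7 lay in no process or marker list: H2-M2, given with the class I genes, and the 6 that follow. Zfp180, a zinc finger gene, stood at 4.9 and 3.47 CPM in WT and 27.8 and 27.5 CPM in KO, a difference of 2.72 ± 0.17 (SE, adjusted p 0.00156). Slc15a2, a peptide transporter that also carries bacterial peptides, stood at 2.95 and 1.52 CPM in WT and 15.6 and 11.2 CPM in KO, a difference of 2.59 ± 0.35 (SE, adjusted p 0.0216). Tspan7, a tetraspanin, stood at 2.59 and 2.6 CPM in WT and 11.1 and 10.5 CPM in KO and rose by 2.06 ± 0.14 (SE, adjusted p 0.00204). In each of the 3 both KO libraries were far above both WT libraries. Slc6a12, a carrier of betaine and GABA, stood at 3.45 and 3.85 CPM in WT and 12.5 and 16.7 CPM in KO and rose by 2.0 ± 0.15 (SE, adjusted p 0.0025). Clcn5, an endosomal chloride-proton exchanger, stood at 11.3 and 11.7 CPM in WT and 36.6 and 42.7 CPM in KO and rose by 1.79 ± 0.24 (SE, adjusted p 0.0216). Rell1, a member of the RELT family, stood at 38 and 35.4 CPM in WT and 119 and 109 CPM in KO and rose by 1.63 ± 0.09 (SE, adjusted p 0.00126). Dropping 1 library ended the call of Slc15a2 (without WT 2, KO 1, KO 2 or either of the stimulated KO libraries, adjusted p up to 0.0929) and Clcn5 (without any single PBS library, adjusted p up to 0.128). Zfp180, Tspan7, Slc6a12 and Rell1 stayed called in all 8 such fits.

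Among the falls at this level, predicted genes aside, Eme2, a partner subunit of the MUS81 nuclease, was the deepest, at 17.1 and 13 CPM in WT and 2.04 and 1.65 CPM in KO, a difference of -3.03 ± 0.22 (SE, adjusted p 0.00224). It shares 1557 exonic bases with Mapk8ip3 on its own strand and 1694 with Spsb3 on the opposite strand, so counts of the 3 genes may be mixed. Rab4a, a GTPase of endosome recycling, stood at 19.5 and 15.7 CPM in WT and 7.32 and 5.27 CPM in KO and fell by 1.49 ± 0.20 (SE, adjusted p 0.0216) on the log2 scale. Golph3l, a Golgi protein, stood at 95 and 101 CPM in WT and 38 and 41.2 CPM in KO and fell by 1.31 ± 0.08 (SE, adjusted p 0.00145). The KO libraries of all 3 lay below their WT libraries. Wdfy1, which binds endosomal phosphoinositides, stood at 35.8 and 48.4 CPM in WT and 19.6 and 15.9 CPM in KO and differed by -1.24 ± 0.20 (SE, adjusted p 0.0387). Fabp7, a fatty acid binding protein, stood at 29.9 and 27.5 CPM in WT and 13.9 and 13.6 CPM in KO and differed by -1.06 ± 0.11 (SE, adjusted p 0.00893). These genes did not overlap either. Sel1l3 differed by -0.94 ± 0.09 (SE, adjusted p 0.00584), Plek, which encodes the protein kinase C substrate pleckstrin, by -0.87 ± 0.07 (SE, adjusted p 0.00433), Nt5dc2 by -0.85 ± 0.08 (SE, adjusted p 0.00584) and Thap6 by -0.85 ± 0.12 (SE, adjusted p 0.0222). Thap6 is annotated as a transcribed pseudogene. It shares 680 exonic bases with Rchy1 on the opposite strand, Plek 199 with Cnrip1, Wdfy1 126 with Mrpl44 and Nt5dc2 112 with Stab1. Leaving out 1 library ended the call of Rab4a (without WT 1, WT 2 or KO 2, adjusted p up to 0.107), Wdfy1 (without any single PBS library or either of the stimulated KO libraries, adjusted p up to 0.194) and Fabp7 (without WT 1, KO 1 or KO 2, adjusted p up to 0.0707). Further calls lost were those of Sel1l3 (without KO 2, adjusted p up to 0.0551) and Thap6 (without any single PBS library, adjusted p up to 0.136). Eme2, Golph3l, Plek and Nt5dc2 stayed called in all 8 such fits.

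For 13 of the genes that rose both WT libraries had 0 counts, and for 1 that fell both KO libraries had 0, so only a bound can be given, with a floor of 3 counts per group. Ighg2b, an immunoglobulin heavy chain, stood at 0 and 0 CPM in WT and 18.5 and 17.6 CPM in KO, at least 791-fold higher. Capn11, a calpain protease known from testis, stood at 0 and 0 CPM in WT and 4.65 and 4.77 CPM in KO, at least 207-fold higher. The immunoglobulin genes Igkv1-135 and Ighg1 stood at 0 and 0 CPM in WT and 2.71 and 2.19 CPM in KO and at 0 and 0 CPM in WT and 1.14 and 2.66 CPM in KO, at least 107-fold and 84.4-fold higher. Cntf, a neurotrophic cytokine that shares 847 exonic bases with Zfp91 on its own strand, stood at 0 and 0 CPM in WT and 1.62 and 2.31 CPM in KO, at least 86.6-fold higher. Gp6, the collagen receptor of platelets, was the fall, from 0.276 and 0.12 CPM in WT to 0 and 0 CPM in KO, at least 7.98-fold lower. With 1 library left out, calls were lost for Igkv1-135 (without any single PBS library, adjusted p up to 0.117), Ighg1 (without WT 1, WT 2 or KO 2, adjusted p up to 0.0679) and Cntf (without any single PBS library or either of the stimulated KO libraries, adjusted p up to 0.162). Also lost were the calls of Gp6 (without WT 1, KO 1, KO 2 or any single stimulated library, adjusted p up to 0.146). Ighg2b and Capn11 stayed called in all 8 such fits.

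Many processes gave no call by edgeR with this spread. The 54 tested cytosolic ribosomal protein genes had 0 calls by edgeR, DESeq2 and limma-voom, but 51 of 54 were positive, with a median of 0.16, and 14 were higher and 0 lower at an unadjusted p under 0.05. Rplp0 stood at 791 and 801 CPM in WT and 902 and 881 CPM in KO, with 0.16 (adjusted p 0.33), and Rpl4 at 756 and 779.6 CPM in WT and 867 and 857 CPM in KO, with 0.17 (adjusted p 0.261). The count of positive members stayed at 51 to 52 under the other scalings. Genes of G2 and mitosis, 30 tested, also had 0 calls by the 3 tools and leaned to the positive side: 26 were positive, with a median of 0.32, and 3 lay at an unadjusted p under 0.05. Mki67, the proliferation marker, stood at 27.3 and 19.5 CPM in WT and 39.7 and 31.4 CPM in KO, with 0.60 (adjusted p 0.293), and Cenpa at 43.3 and 34.7 CPM in WT and 40.2 and 31.5 CPM in KO, with -0.12 (adjusted p 0.813). Of 32 S phase genes 0 were called by the 3 tools, the median was 0.08, and 2 were higher and 1 lower at an unadjusted p under 0.05. Pcna differed by -0.29 (adjusted p 0.26) and Mcm6 by 0.06 (adjusted p 0.884).

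Metabolic lists held no call by edgeR. Of 28 genes of sterol and fatty acid synthesis 0 were called by edgeR and limma-voom and 2 fell by DESeq2, with a median of -0.10 and 3 higher and 8 lower at an unadjusted p under 0.05. Acly, which makes cytosolic acetyl-CoA, was nearest to a call, at 171 and 174 CPM in WT and 135 and 144 CPM in KO, with -0.31 (adjusted p 0.0793), and Fads1 differed by 0.17 (adjusted p 0.26). Of 24 NRF2 and antioxidant genes 0 were called by the 3 tools, with a median of -0.03 and 3 in either direction at an unadjusted p under 0.05. Fth1, the ferritin heavy chain, was split within KO, at 12003 and 12993 CPM in WT and 12584 and 6940.2 CPM in KO, and Ftl1 differed by -0.09 (adjusted p 0.788). The 13 mitochondrial mRNAs had 0 calls by the 3 tools and 0 at an unadjusted p under 0.05, with a median of 0.04, mt-Co1 at 0.04 (adjusted p 0.903) and mt-Cytb at 0.00 (adjusted p 1.00). The 36 nuclear respiratory chain genes had 0 calls by the 3 tools, 2 higher and 3 lower at an unadjusted p under 0.05, and a median of -0.02 that became 0.02 with library size alone, Atp5a1 at -0.01 (adjusted p 0.969) and Atp5b at -0.08 (adjusted p 0.602).

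Signalling lists gave 1 call by edgeR. Of 22 JAK, STAT and SOCS genes 0 were called by edgeR and limma-voom and 1 rose by DESeq2, with 2 higher and 1 lower at an unadjusted p under 0.05 and a median of -0.02. Jak1 differed by -0.01 (adjusted p 0.99) and Stat6 by -0.02 (adjusted p 0.918). Of 23 immediate early genes 0 were called by edgeR and limma-voom, and 2 rose and 1 fell by DESeq2, with a median of -0.06 and 4 higher and 6 lower at an unadjusted p under 0.05. Junb stood at 462 and 641 CPM in WT and 318 and 435 CPM in KO, with -0.55 (adjusted p 0.242), and Klf6 differed by -0.19 (adjusted p 0.397). Of 20 p53 targets the death receptor Fas rose from 3.27 and 4.39 CPM in WT to 7.1 and 7.72 CPM in KO, by 0.95 ± 0.16 (SE, adjusted p 0.0387), 0 fell, and the median was 0.03. Calls lost on leaving out 1 library were those of Fas (without WT 1, KO 1, KO 2 or any single stimulated library, adjusted p up to 0.175).

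**Figure D3:**
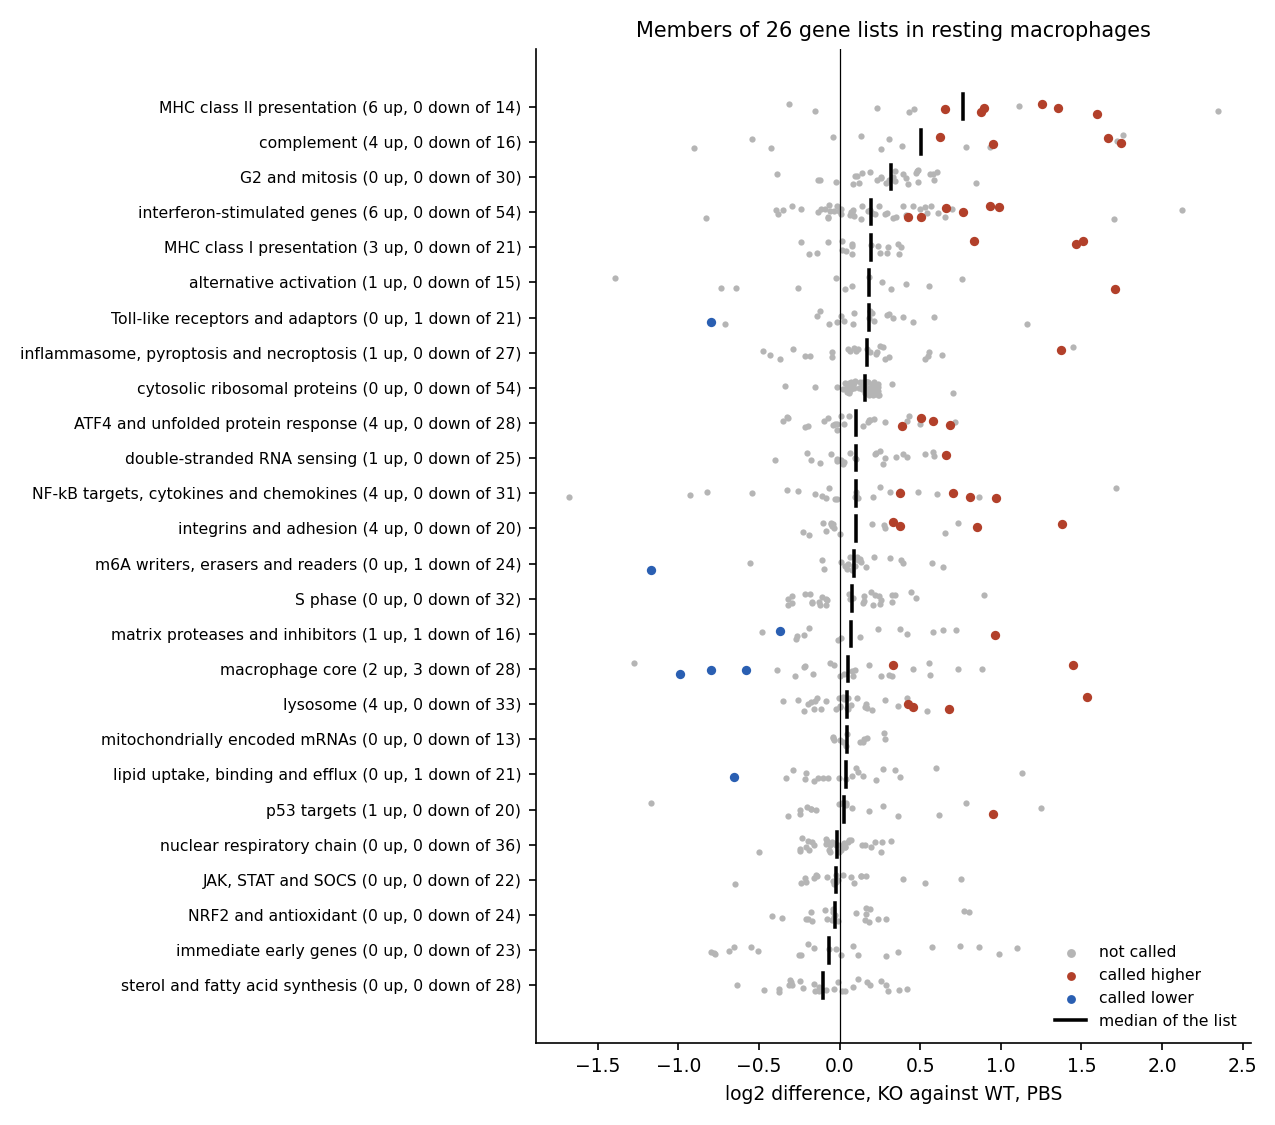
Log2 difference between KO and WT with PBS for the tested members of 26 gene lists, 1 point per gene, ordered by the list's median (black bar), with genes at 0 counts in a genotype left out. Red points were called higher and blue points lower, and the MHC class II and complement lists have the highest medians, 0.77 and 0.50. The lists were chosen with earlier results of these data known.

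Markers of other cells that a marrow culture can hold were measured in the same libraries. Of 16 tested fibroblast and stromal markers 6 rose and 0 fell, 15 were positive, and the median difference was 0.69. Their summed level was 372 to 416 CPM in WT and 603 to 637 CPM in KO, without overlap. Col3a1, a fibrillar collagen, stood at 22.5 and 25.6 CPM in WT and 38 and 38.3 CPM in KO, a difference of 0.66 ± 0.09 (SE, adjusted p 0.0198), and Col6a2 at 22.2 and 21.7 CPM in WT and 37.6 and 34.2 CPM in KO, a difference of 0.71 ± 0.10 (SE, adjusted p 0.0268). The matrix proteins decorin (Dcn) and SPARC (Sparc) stood at 12.8 and 13.3 CPM in WT and 22.7 and 23.8 CPM in KO and at 47.1 and 48.5 CPM in WT and 76.8 and 80.5 CPM in KO, and rose by 0.84 ± 0.10 (SE, adjusted p 0.0132) and 0.72 ± 0.09 (SE, adjusted p 0.019). Col6a1 and Bgn were the other rises. The count of 6 was 0 without WT 1, WT 2, KO 1 or KO 2 and 3 without stimulated KO 1 or stimulated KO 2, 11 by DESeq2, 3 with the replicate number as a block and 0 in the fit of the PBS libraries alone. A single library left out ended the call of Col3a1 and Col6a2 (without any single PBS library or either of the stimulated KO libraries, adjusted p up to 0.109 and 0.146), Dcn and Sparc (without any single PBS library, adjusted p up to 0.0876 and 0.119) and Col6a1 (without any single PBS library or any single stimulated library, adjusted p up to 0.192). The same held for Bgn (without any single PBS library or either of the stimulated WT libraries, adjusted p up to 0.169).

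Immunoglobulin light and switched heavy chains rose while Ighm did not pass. Besides Ighg2b and Ighg1, the light chain Igkc stood at 4.01 and 2.12 CPM in WT and 21.3 and 21.4 CPM in KO, a difference of 2.80 ± 0.31 (SE, adjusted p 0.012), and the joining chain Jchain at 0.184 and 0.331 CPM in WT and 1.87 and 1.75 CPM in KO, a difference of 2.80 ± 0.35 (SE, adjusted p 0.0167). Ighm, the heavy chain of naive B cells, stood at 51.5 and 53 CPM in WT and 28.2 and 35.8 CPM in KO , with -0.71 (adjusted p 0.138). Over all immunoglobulin chains, a family chosen after its values were seen, 8 of 49 tested rose and 0 fell. These genes are close copies of each other, so their split is uncertain. Endothelial markers gave 1 rise of 4 tested, von Willebrand factor (Vwf), at 44.8 and 45.8 CPM in WT and 130.3 and 143 CPM in KO, a difference of 1.59 ± 0.08 (SE, adjusted p 0.000718), while Cdh5, Kdr and Pecam1 did not pass, with 1.05 (adjusted p 0.274), -0.03 (adjusted p 0.995) and -0.44 (adjusted p 0.429). Neutrophil markers gave 1 rise of 8, Csf3r, the G-CSF receptor, at 185 and 204 CPM in WT and 263 and 291 CPM in KO, a difference of 0.51 ± 0.08 (SE, adjusted p 0.0302), with sums of 215 to 238 CPM in WT and 292 to 323 CPM in KO, and Ly6g and Retnlg had 0 counts. The part of these cell types in any other result was not tested. Dropping 1 library ended the call of Igkc (without KO 1 or KO 2, adjusted p up to 0.0621), Jchain (without WT 1, KO 1, KO 2 or stimulated KO 2, adjusted p up to 0.0847) and Ighg1 (without WT 1, WT 2 or KO 2, adjusted p up to 0.0679). Further calls lost were those of Csf3r (without any single PBS library, either of the stimulated KO libraries or stimulated WT 2, adjusted p up to 0.16). Ighg2b and Vwf stayed called in all 8 such fits. The B and plasma cell count of 4 was 1 without KO 2 and 2 without WT 1 or KO 1.

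Other markers gave few calls. T and NK cell markers gave 0 calls of 2 tested by the 3 tools and 0 at an unadjusted p under 0.05, with Cd4 at 16.3 and 15.1 CPM in WT and 15.6 and 20.8 CPM in KO, Lck at 0.91 (adjusted p 0.786), and Cd3e, Trbc2, Ncr1 and Gzma at 0 counts. Mast cell and basophil markers gave 0 calls of 3 by the 3 tools and 0 at an unadjusted p under 0.05, with Kit at -0.04 (adjusted p 1.00) and Prss34 at 1.42 (adjusted p 0.804). Erythroid and megakaryocyte markers gave 0 calls of 5 by edgeR and limma-voom and 1 fall by DESeq2, with 1 lower at an unadjusted p under 0.05. All 5 were negative, with a median difference of -0.85. In 4 of the 5 the KO libraries lay below the WT ones without overlap, which held for 24% of all tested genes. Pf4 stood at 18.2 and 17.9 CPM in WT and 15.8 and 16 CPM in KO, with -0.18 (adjusted p 0.715), and Ppbp differed by -0.44 (adjusted p 0.494). Batf3, a dendritic cell factor, was at 1.04 and 1.08 CPM in WT and 1.34 and 1.55 CPM in KO. No adipocyte marker was abundant enough to test. The nuclear RNAs Malat1 and Neat1, read as a sign of RNA handling, differed by -0.52 (adjusted p 0.595) and -0.22 (adjusted p 0.674), with 0 calls of 4 by the 3 tools and 0 at an unadjusted p under 0.05 by edgeR. Of 4 tested sex-linked genes Eif2s3y, a translation factor subunit on chromosome Y, rose from 26.9 and 25.1 CPM in WT to 46.5 and 49.7 CPM in KO, by 0.89 ± 0.08 (SE, adjusted p 0.00515), while Kdm5d, Uty and Ddx3y differed by 0.05 (adjusted p 0.94), 0.00 (adjusted p 1.00) and -0.36 (adjusted p 0.262). Eif2s3y stayed called in all 8 fits that left out 1 library.

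**Figure D4:**
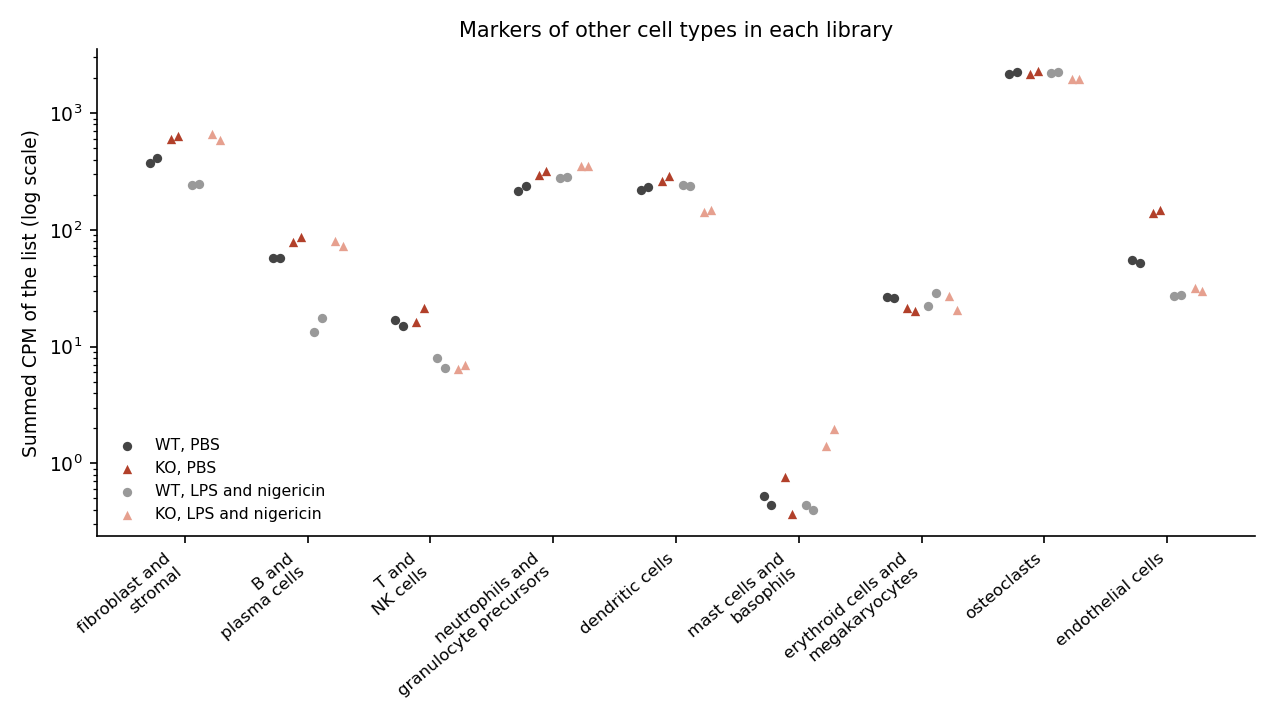
Summed CPM (log axis) of 9 lists of markers of other cell types in each of the 8 libraries, WT as circles and KO as triangles, PBS in dark and stimulated in light shades. Stromal sums with PBS were 372 to 416 in WT and 603 to 637 in KO, and B and plasma cell sums 56.9 to 57.5 and 79.1 to 87.4. Most of the WT B and plasma cell sum with PBS is Ighm, which stood lower in KO while other members rose.

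The genotype difference after LPS and nigericin shares no library with the resting one, so the same genes could be read there. Both differences come from 1 fit with a shared estimate of the spread, so a gene of small spread is more easily called in both. Whether resting and stimulated cultures share mice is not given either, so shared calls are not an independent repeat. It gave 508 rises and 352 falls (4.92% of tested genes called, 2.91% higher and 2.01% lower). Of the 209 genes that rose at rest 180 (86.1%) had the same sign after stimulation, 96 were called in the same direction (45.9% of the 209 and 18.9% of the 508), and 6 in the opposite one, with medians of 0.99 at rest and 0.50 after stimulation. Of the 62 that fell 52 (83.9%) kept the sign, 33 were called in the same direction (53.2% of the 62 and 9.38% of the 352) and 2 in the opposite one, with medians of -0.76 and -0.44. Over all tested genes 60.7% had the same sign. Mettl3 was again lower, at 28.2 and 23.4 CPM in WT and 9.08 and 7.87 CPM in KO and a difference of -1.61 (adjusted p 0.00283). Class II genes were called higher there too, H2-Aa by 0.86 (adjusted p 0.0113) and Cd74 by 0.74 (adjusted p 0.017), as were Calr by 0.47 (adjusted p 0.00988) and Hsp90b1 by 0.35 (adjusted p 0.0171). Cd36 and Lyz2 were again lower, by -1.25 (adjusted p 0.00102) and -1.14 (adjusted p 0.00102). Summed stromal markers stood at 245 to 246 CPM in WT and 588 to 663 CPM in KO, and B and plasma cell markers at 13.3 to 17.5 CPM in WT and 72.9 to 80.4 CPM in KO. When 1 library was left out, the 508 rises were 80 without stimulated KO 1, 146 without stimulated KO 2, 255 without stimulated WT 1 or stimulated WT 2, 325 without KO 2 and 331 without KO 1, and the 352 falls were 76 without stimulated KO 1, 103 without stimulated KO 2, 205 without stimulated WT 2, 230 without WT 2 and 232 without stimulated WT 1.

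The effect of genotype itself differed between treatments in 87 genes (0.498% of tested genes), 69 with a larger log2 ratio at rest (0.395%) and 18 with a smaller one (0.103%), and 36 of them were called at rest. Marco was higher in KO at rest and lower after stimulation, at 732 and 739.5 CPM in WT and 582 and 551 CPM in KO, so that its effect differed by 2.09 ± 0.09 (SE, adjusted p 0.0014). Zfp180 turned too, to 24.9 and 24 CPM in WT and 4.99 and 5.48 CPM in KO, a difference between effects of 4.95 ± 0.24 (SE, adjusted p 0.00178). Ass1, which makes the precursor of arginine, rose at rest from 2.85 and 3.25 CPM in WT to 6.66 and 7.03 CPM in KO, by 1.16 ± 0.09 (SE, adjusted p 0.0025), and fell after stimulation by 0.98 (adjusted p 0.00218), a difference between effects of 2.14 ± 0.12 (SE, adjusted p 0.00265). These 3 reversed sign without overlap at either treatment. The predicted gene Gm12435, annotated as a processed pseudogene, went the other way. It had 49.5 and 33.7 CPM in WT and 3.15 and 2.45 CPM in KO at rest and 2.64 and 3.05 CPM in WT and 30.6 and 60.4 CPM in KO after stimulation, a difference between effects of -7.89 ± 0.54 (SE, adjusted p 0.00435). H2-Q6 and H2-Q7 differed after stimulation by -0.08 (adjusted p 0.555) and 0.17 (adjusted p 0.222), and their effects at the 2 treatments differed by 1.55 ± 0.09 (SE, adjusted p 0.00293) and 1.34 ± 0.10 (SE, adjusted p 0.00535). When 1 library was left out, the 69 became 15 without stimulated KO 1, 18 without stimulated KO 2, 23 without WT 1, 25 without KO 2, 33 without stimulated WT 2 and 42 without KO 1, and the 18 became 5 without stimulated KO 1, 7 without stimulated KO 2, 9 without WT 1, 11 without KO 2 and 31 without stimulated WT 1. At rest, leaving out 1 library ended the call of Gm12435 (without KO 2, adjusted p up to 0.0707). Marco, Zfp180, Ass1, H2-Q6 and H2-Q7 stayed called in all 8 such fits.

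**Figure D5:**
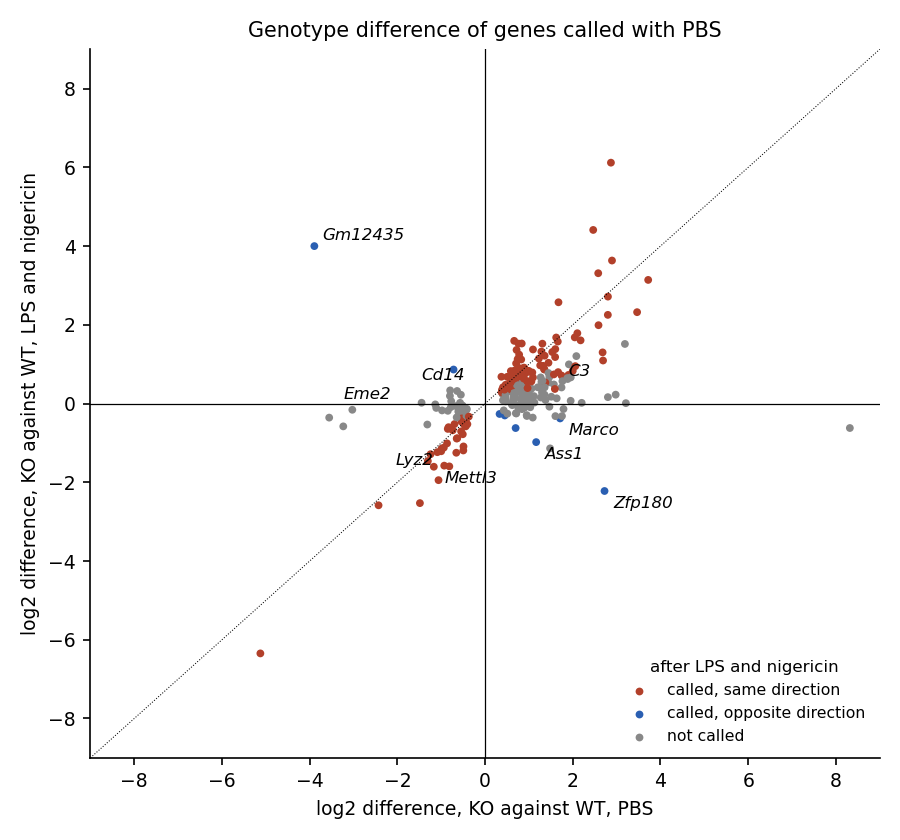
Log2 difference between KO and WT after LPS and nigericin against that with PBS for 256 genes called with PBS (15 with 0 counts in a genotype and treatment left out), the dotted line marking equal effects. Red points were called in the same direction after stimulation, blue points in the opposite one (among them Marco, Zfp180, Ass1 and Gm12435) and grey points not called.

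The METTL3 complex is known to favour the core letters ggact, so their density was read in the longest transcript of each gene. Genes that rose had a median of 1.2 such motifs per kb and those that fell 1.12, against 0.997 for all tested genes. Among protein-coding genes alone the medians were 1.2, 1.14 and 1.04. The median transcript length was 2591 bases for genes that rose, 3399 for those that fell and 2820 over all tested genes. Among protein-coding genes alone it was 2694, 3399 and 3362, so the falls were close to their background there and the rises below it. Genes called at rest lay on every chromosome tested but the mitochondrial one, with 1 of 12 on chromosome Y. On the others the share ran from 0.667% of tested genes on chromosome 18 to 2.55% on chromosome 6 and 2.6% on chromosome 17. The MHC genes lie on chromosome 17 and the immunoglobulin kappa genes on chromosome 6, and their part in these shares was not tested.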

How the data were processed

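RNA was extracted with Trizol from cultured bone marrow-derived macrophages and made into libraries with an RNA-seq library preparation kit, per the labels' protocols. The authors deposited 1 table of raw whole-number counts per gene for all 8 libraries. Trimmomatic, Bowtie2, edgeR and the build mm10 are named in the submitters' processing notes, without versions or roles. How genes were counted, with which annotation and whether by strand, is not given in the sources used here, and every sample column was matched by name (0 unmatched).

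Counts were tested with edgeR 4.0.16 (R 4.3.3) by the quasi-likelihood F test with TMM scaling and 1 coefficient for each of 4 groups of 2 libraries. Genes were kept by filterByExpr (minimum count 10, minimum total 15), which left 17470 of 55401, and p-values were adjusted by Benjamini-Hochberg over all tested genes with a threshold of 0.05. All 8 libraries share 1 estimate of the spread (4 residual degrees of freedom). CPM values were computed here from TMM-scaled totals, and an SE is the absolute log2 ratio divided by the square root of F. Single values such as marker sums are given per library without a test, since 2 against 2 cannot go below an exact two-sided permutation p of 0.33. With totals of 55032057 to 65487739 counts, library pairs of a group differed by a chi-square of 39.3 to 81.1 per degree of freedom, pooled over tested genes. Counting error was thus small beside the spread between libraries for abundant genes, which weigh most in that value. It does not cover scarce genes such as Gp6, with 18 and 8 counts in WT and 0 and 0 in KO with PBS.

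Positions, exonic overlaps and transcript features come from GENCODE M21 (GRCm38, the assembly of mm10). Promoter windows (250 bases before to 50 after a start) come from RefSeq, GRCm38.p6. Named genes are Mettl3, Lyz2, Zbp1 and Nlrp3, the 12 largest rises and falls averaging 10 CPM or more in the higher group without overlap (predicted genes left out), up to 4 called members of each list by adjusted p or 2 uncalled by level, the 5 largest each way with 0 counts in the other genotype, and the 6 smallest adjusted p of the difference between treatments among genes called at rest. Other genes were named after their values were seen, and some genes that the rule names are not reported here. The 26 process lists, 12 marker lists and all members were chosen with earlier results of these data known.

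Replicate numbers were checked as a pairing: deviations from the group means correlated by 0.101 between WT and KO with PBS and by -0.015 to 0.018 in the other pairs of groups, so the numbers were not taken as pairs. The alternatives were DESeq2 1.42.0 with its own test or only its size factors, limma-voom 3.58.1, library size alone, no filter, a stricter filter (at least 5 CPM in 2 libraries), a fit of only the groups compared, testing against a fold of 1.5, a block for the replicate number, and leaving out each library. The test was checked on simulated data. Figures were drawn with matplotlib 3.10.9.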

Additional observations from a re-analysis of the deposited data

Results flagged for a closer look

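For 23 named genes the log2 difference between KO and WT at rest was unlike that after LPS and nigericin by the test of the difference between these effects (edgeR, adjusted p 0.0014 to 0.044). The values below are the effect at rest minus the effect after stimulation, both in 2 libraries a side, and 19 were positive and 4 negative. Chemoattractant receptors, scavenger receptors and acute-phase genes were on the positive side, with Fpr1 2.18, Fpr2 1.88, Marco 2.09, Clec4n 1.32, Saa3 0.98 and Slpi 1.27. Immune and adhesion genes there were C3 0.87, Cfb 0.84, Ccl5 0.95, Lgals3bp 0.83, H2-Q6 1.55, H2-Q7 1.34, Itgax 1.05, Itgb2 0.60 and Vwf 1.22. The others were Ass1 2.14, Rell1 1.5, Zfp180 4.95 and mt-Cytb 0.95. The negative values were Cd14 -1.13, Col3a1 -0.93, Eme2 -2.87 and Gm12435 -7.89.

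Fpr1 and Fpr2 stood at 582 and 623 CPM in WT and 618 and 602 CPM in KO and at 559 and 627 CPM in WT and 624 and 619.8 CPM in KO in stimulated cells, with genotype differences there of 0.02 (adjusted p 0.974) and 0.07 (adjusted p 0.879). Cd14 was lower in KO at rest and stood at 1074 and 1118 CPM in WT and 1416 and 1347 CPM in KO after stimulation, with 0.33 (adjusted p 0.0923). Itgax and mt-Cytb were not called at rest, and their stimulated differences were -0.76 (adjusted p 0.00392) and -0.95 (adjusted p 0.00166).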

How the results depend on the processing

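Calls moved with the processing. The 271 genes called at rest were also called in number as follows: 265 with DESeq2 size factors, 262 with library size alone, 271 by DESeq2, 227 by limma-voom, 203 with the replicate number as a block, 61 with the fold threshold of 1.5 and 39 in the fit of the 4 PBS libraries alone, which has 2 libraries a side to estimate the spread. With 1 library left out, the counts spanned 56 to 196 (at rest, higher), 17 to 68 (at rest, lower), 80 to 356 (after stimulation, higher), 76 to 263 (after stimulation, lower), 15 to 68 (difference between treatments, higher), 5 to 31 (difference between treatments, lower), 1 to 6 (MHC class II presentation), 2 to 5 (interferon-stimulated genes), 0 to 5 (ATF4 and unfolded protein response), 1 to 3 (lysosome), 1 to 3 (NF-kB targets, cytokines and chemokines), 0 to 3 (integrins and adhesion), 0 to 3 (macrophage core, higher), 1 to 4 (macrophage core, lower), 0 to 4 (fibroblast and stromal) and 1 to 5 (B and plasma cells). The lone library was then assumed to vary like the others.

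Rises and falls at rest numbered 572 and 304 by DESeq2, 33 and 12 with only the groups compared, and 54 and 7 with the fold threshold, of which 88.5% were rises, and limma-voom called 104 falls. After stimulation they numbered 943 and 711 by DESeq2, 300 and 203 with only the groups compared, and 69 and 45 with the fold threshold, and library size alone gave 1044 rises. For the difference between treatments, DESeq2 called 294 and 192 and the fold threshold left 12 and 4.

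By DESeq2 the members called were 6 (MHC class I presentation), 15 (interferon-stimulated genes), 9 (complement), 7 (ATF4 and unfolded protein response), 4 higher and 5 lower (macrophage core) and 11 (fibroblast and stromal). Library size alone gave 5 for MHC class I presentation and 7 for complement. With only the groups compared they were 2 for MHC class II presentation, 1 each for MHC class I presentation, interferon-stimulated genes, lysosome, NF-kB targets, integrins and adhesion, and B and plasma cells, and 0 each for ATF4 and unfolded protein response, macrophage core (higher) and fibroblast and stromal. With the fold threshold they were 1 each for MHC class II presentation, interferon-stimulated genes, lysosome, NF-kB targets and macrophage core (lower), and 0 each for ATF4 and unfolded protein response, integrins and adhesion, macrophage core (higher) and fibroblast and stromal. At 5 CPM in 2 libraries, 2 B and plasma cell markers were called. The cause of these shifts was not tested.

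The fit with the replicate number as a block called 172 higher and 57 lower at rest, 373 and 299 after stimulation, and 48 and 12 for the difference, and 3 fibroblast and stromal markers. The labels do not say that a number marks a shared mouse or day.

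None of the 75 called genes that the naming rule chose changed sign under the alternatives run. In all called genes the KO and WT libraries did not overlap, so leaving out 1 library could hardly turn a sign. The constant sign is therefore no further evidence for their direction. Uncalled genes near 0 did change sign. Their values were Atp5a1 0.0215, Jak1 0.0262 and Stat6 0.0118 with library size alone, Jak1 0.0018 with only the groups compared, mt-Cytb -0.0017 with DESeq2 size factors and mt-Cytb -0.0017 with DESeq2. Over the fits that left out 1 library they spanned Atp5a1 -0.0326 to 0.00900, Cd4 -0.0111 to 0.406, Cenpa -0.307 to 0.049, Fth1 -0.849 to 0.0101, Ftl1 -0.185 to 0, Jak1 -0.0297 to 0.0157, Kit -0.444 to 0.283, Lck -0.0988 to 7.56, Mcm6 -0.109 to 0.207, mt-Cytb -0.0274 to 0.0333, Neat1 -0.497 to 0.0135, Nlrp3 -0.0171 to 0.146 and Prss34 -3.98 to 5.37. The fitted values of Lck and Prss34 rest on a few counts.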

Other observations

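The genes in this section were chosen after their values were seen. Several metabolic enzymes rose at rest. The aldo-keto reductases Akr1c12 and Akr1c13 differed by 1.05 (adjusted p 0.0222) and 0.83 (adjusted p 0.0124), and the carbonyl reductase Cbr3 by 0.71 (adjusted p 0.0167). Mitochondrial ribosomal protein genes Mrpl43, Mrpl46 and Mrps2 rose by 0.90 (adjusted p 0.0222), 0.67 (adjusted p 0.0314) and 0.53 (adjusted p 0.0364). The purine nucleoside phosphorylase gene Pnp rose by 0.44 (adjusted p 0.0367). Axl, a receptor tyrosine kinase that binds GAS6 on dying cells, rose by 0.78 (adjusted p 0.0222). Leaving out 1 library ended the call of Akr1c12, Mrpl43, Mrpl46 and Pnp (without any single PBS library or either of the stimulated KO libraries, adjusted p up to 0.119, 0.132, 0.172 and 0.204), Akr1c13 (without WT 1, WT 2 or KO 2, adjusted p up to 0.0774) and Cbr3 (without any single PBS library, adjusted p up to 0.103). Also lost were the calls of Mrps2 (without any single PBS library or any single stimulated library, adjusted p up to 0.204) and Axl (without WT 1, WT 2, KO 2 or either of the stimulated KO libraries, adjusted p up to 0.132).

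Falls outside the lists included Vegfa, the vascular growth factor, at 209.5 and 214 CPM in WT and 144 and 142 CPM in KO (-0.57 with an adjusted p 0.0175), and Il7r, the receptor of interleukin 7, at 443 and 417 CPM in WT and 319.6 and 292 CPM in KO, a difference of -0.49 (adjusted p 0.027). The intermediate filament gene Vim differed by -0.51 (adjusted p 0.0216), the clock genes Per1 and Nfil3 by -0.66 (adjusted p 0.0415) and -0.64 (adjusted p 0.043), the GTPase gene Rhob by -0.55 (adjusted p 0.038) and the purine oxidase gene Xdh by -0.55 (adjusted p 0.0148). With 1 library left out, calls were lost for Vegfa and Xdh (without any single PBS library, adjusted p up to 0.11 and 0.0903), Il7r, Vim and Per1 (without any single PBS library or either of the stimulated KO libraries, adjusted p up to 0.154, 0.129 and 0.181) and Nfil3 and Rhob (without any single PBS library or any single stimulated library, adjusted p up to 0.178 and 0.195).

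A few genes that define macrophages split within a genotype. Sirpa, the inhibitory receptor for CD47, stood at 1684 and 1819 CPM in WT and 702 and 745 CPM in KO, a wide gap between genotypes that did not pass, with -1.28 (adjusted p 0.175), and after stimulation at 729 and 860.1 CPM in WT and 1619.9 and 646 CPM in KO, so that the stimulated KO libraries lay far apart. Itgam, which encodes CD11b, stood at 134 and 367 CPM in WT and 448 and 387 CPM in KO, with WT 1 below the other 3 libraries and a difference of 0.74 (adjusted p 0.462).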
